A study of Mus musculus with 3 samples.

Results

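Genes of the β-adrenergic and cAMP signalling cascade were followed on 3 arrays, 1 each for DiBA cells, for a sample labelled BA and for mouse fibroblasts in culture. DiBA and BA are together called the brown samples below. The genes were chosen by symbol: 9 had been listed, and those whose symbol was carried alone by at least 1 probe set of the platform table were taken. This gave 4 genes with 6 probe sets, out of 19938 genes and 28943 probe sets: Adcy3, Pde3b, Pde4d and Prkar2b. The other 5, the receptor genes Adrb1, Adrb3, Adra1a, Adra2a and Adora2a, were not analysed here, so the values below describe the enzymes and the kinase that act downstream of the receptors and not the receptors themselves.

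According to its title, the series is about brown adipocytes made by direct conversion, and the labels name the DiBA sample as a cell type of its own. Which factors were introduced into those cells, and the strain, age and sex of the mice, are not given in the labels. The labels assign BA to brown adipose tissue but describe it as cultured cells, so whether BA was tissue or a culture is not settled. The labels name no treatment of any sample, and no adrenergic agonist is mentioned.

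Noradrenaline released by sympathetic nerves binds β-adrenergic receptors on brown adipocytes, and the coupled Gs protein activates adenylyl cyclase, which makes cAMP. cAMP releases the catalytic subunits of protein kinase A from their regulatory subunits, and the freed kinase phosphorylates lipolysis proteins and the transcription factor CREB. Phosphodiesterases break cAMP down and end the signal, and receptors coupled to Gi oppose it.

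The arrays' median intensities were 71.5 for DiBA, 67.7 for BA and 67.8 for fibroblasts. The median over all 3 arrays, 69.2, serves below as the mark under which background is taken to make up much of a value. Differences are of log2(intensity + 1), and a fold is the power of 2 of such a difference. A gene was called when it differed at least 2-fold and the brighter array reached 69.2. With 1 array per group there is no replicate check, no p-value and no error on any difference, and every statement describes these 3 arrays. Of all probe sets, 47.3% had exactly the same intensity in DiBA and BA, 39.5% in DiBA and fibroblasts and 37.0% in BA and fibroblasts, as the deposited values were made, whereas 0 of the 6 member probe sets did in any pair. The median difference over all genes was 0 in each comparison and fell on such equal values. A median of exactly 0, of all genes or of a list below, is therefore no measured lack of change.

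Before the members, the sample labels were set against marker genes. All 6 brown adipocyte markers, among them Ucp1 and Cidea, were called higher in DiBA and in BA than in fibroblasts, 4 of them also with low values raised to 69.2. Their summed intensity was 23667 in DiBA and 25268 in BA, against 191 in fibroblasts. The 6 general adipocyte markers, among them Adipoq and Pparg, summed to 25375 in DiBA and 26663 in BA, against 316 in fibroblasts. Of 8 fibroblast markers, 6 were called lower in DiBA and 7 in BA than in fibroblasts, with sums of 7359 in DiBA, 4458 in BA and 23191 in fibroblasts. Fn1 made up 2799 of the sum in DiBA, 850 in BA and 7920 in fibroblasts. It was the 1 marker of this list called between DiBA and BA, higher in DiBA. Muscle, endothelial and macrophage markers stood higher in the brown samples as well. The 6 skeletal muscle markers summed to 9988 in DiBA and 11424 in BA, against 899 in fibroblasts. The 6 endothelial markers summed to 2488 in DiBA and 2943 in BA, against 393 in fibroblasts, and the 6 macrophage markers to 3298 in DiBA and 3253 in BA, against 920 in fibroblasts. No marker of these 3 lists, all of other cell types, lay under 69.2 in DiBA or BA. The 6 smooth muscle and pericyte markers summed to 2793 in DiBA and 2987 in BA, against 10304 in fibroblasts, of which Acta2 made up 6596. Of these 6, Acta2, Myh11 and Pdgfrb were called lower in both brown samples. Pdgfrb read 603 in DiBA and 555 in BA, against 2545 in fibroblasts. Cspg4 was lower without being called, at 370 in DiBA and 406 in BA, against 627 in fibroblasts. Rgs5 and Kcnj8 were called higher, at 750 and 418 in DiBA and 865 and 562 in BA, against 57.3 and 136 in fibroblasts. The genes of this list therefore did not move together. Of the 4 sympathetic neuron and Schwann cell markers measured, 3 lay under 69.2 on every array, and S100b was called higher, at 214 in DiBA and 260 in BA, against 52.8 in fibroblasts. The part of these cell types in the differences given below was not tested, and in such bulk RNA fewer cells of a type and less RNA per cell cannot be told apart.

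Of the 4 genes measured, 3 were called higher in DiBA than in fibroblasts and 0 lower, where 16.2% of all genes were called, 8.54% higher and 7.67% lower. The same 3, Adcy3, Pde3b and Prkar2b, were called higher in BA than in fibroblasts, where 19.1% of all genes were called, 9.51% higher and 9.59% lower. These comparisons share the fibroblast array. The members were also chosen with earlier results of these data known, so the shares are no test of them. Between DiBA and BA 0 of the 4 were called, where 0.973% of all genes were, all of them higher in DiBA and 0 lower. Beside so small a share, a count of 0 of 4 says little about the members. All 4 genes passed the intensity mark in each comparison, whereas the shares also count genes under it, which could not be called. Against fibroblasts, 3233 of the 11621 genes that passed the mark were called in DiBA, and 3810 of 11663 in BA.

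**Figure D1:**
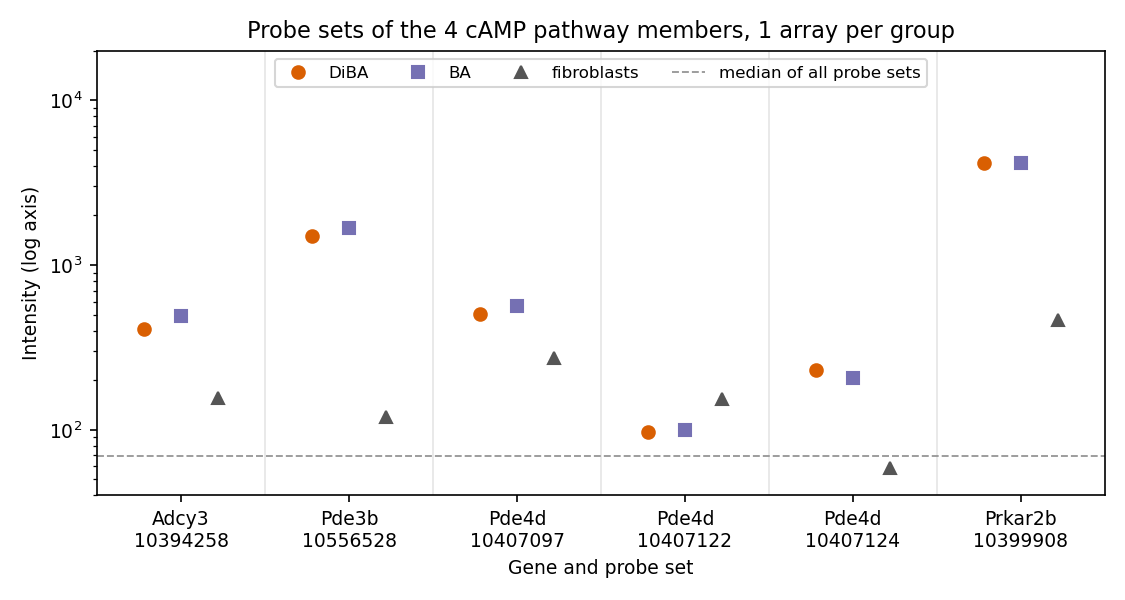
Intensity (log axis) of the 6 probe sets of Adcy3, Pde3b, Pde4d and Prkar2b on the DiBA, BA and fibroblast arrays, 1 point per array, with the median of all probe sets, 69.2, as a dashed line. Probe sets differ in how brightly they hybridise, so points are to be compared within a probe set only. The DiBA and BA points lie together and above the fibroblast point in 5 of 6 probe sets, and below it in the Pde4d probe set 10407122.

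Adcy3 encodes adenylyl cyclase 3, a membrane enzyme that makes cAMP from ATP. Its probe set read 409 in DiBA and 490 in BA, against 156 in fibroblasts. It was brightest in BA and dimmest in fibroblasts, 2.61-fold higher in DiBA and 3.12-fold higher in BA than in fibroblasts. Between the brown samples it was 1.20-fold higher in BA, the widest gap of the 4 genes, and the DiBA minus BA difference of -0.26 was lower than that of all but 4.7% of genes.

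Pde3b encodes phosphodiesterase 3B, the cAMP-degrading enzyme through which insulin restrains lipolysis in adipocytes. It read 1498 in DiBA and 1687 in BA, against 119.9 in fibroblasts. This was the largest difference of the 4 genes, 12.4-fold in DiBA and 14.0-fold in BA, and in each comparison with fibroblasts it exceeded the difference of 99.1% of genes. All 3 arrays lay above 69.2, so the fold was the same with low values raised to that mark, though background itself was not measured.

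Prkar2b encodes RIIβ, the regulatory subunit of protein kinase A that predominates in mouse adipose tissue. It read 4145 in DiBA and 4165 in BA, against 466 in fibroblasts. The 2 brown samples lay close to each other, with a DiBA minus BA difference of -0.01 (log2), and stood 8.88-fold (DiBA) and 8.93-fold (BA) above fibroblasts, a difference larger than that of 98.6% and 98.4% of genes. Prkar2b was the member closest between DiBA and BA.

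Pde4d encodes phosphodiesterase 4D, a cAMP-specific enzyme made as many isoforms from different starts, and its 3 probe sets disagreed. Probe set 10407097 read 502 in DiBA and 566 in BA, against 274 in fibroblasts, 1.83-fold and 2.06-fold higher. Probe set 10407124 read 229 in DiBA and 207 in BA, against 59.0 in fibroblasts, 3.84-fold and 3.47-fold higher, or 3.28-fold and 2.96-fold with the fibroblast value raised to 69.2. Probe set 10407122 went the other way, with 97.4 in DiBA and 99.2 in BA, against 154 in fibroblasts, so that it was 1.58-fold and 1.55-fold higher in fibroblasts. The platform table supports 10407122 by 1 cDNA clone sequence alone, whereas the other probe sets match the RefSeq transcripts of the gene. Averaged over the 3 probe sets, Pde4d was 1.65-fold higher in DiBA and 1.67-fold higher in BA than in fibroblasts and was not called. With its brightest probe set alone it passed 2-fold in BA.

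The place of DiBA between the other samples varied among these probe sets. On the linear scale, with fibroblasts at 0% and BA at 100%, DiBA stood at 75.8% for Adcy3, 88.0% for Pde3b and 99.5% for Prkar2b. For Pde4d it stood at 78.0% with probe set 10407097, 103.3% with 10407122 and 115.1% with 10407124. Over the 1897 genes called higher in BA than in fibroblasts the median was 83.7%, with quartiles of 77.0% and 90.1%. Those genes were chosen for a high BA value, which favours a figure under 100%. Adcy3 thus lay just under the lower quartile, Pde3b between the quartiles and Prkar2b above the upper one. The summed markers stood at 93.6% for brown adipocytes, 95.1% for adipocytes, 86.4% for skeletal muscle, 82.2% for endothelium, 101.9% for macrophages and 84.5% for fibroblasts. Those left out of the figure stood at 102.7% for smooth muscle and pericytes and at 80.5% for sympathetic neurons and Schwann cells.

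**Figure D2:**
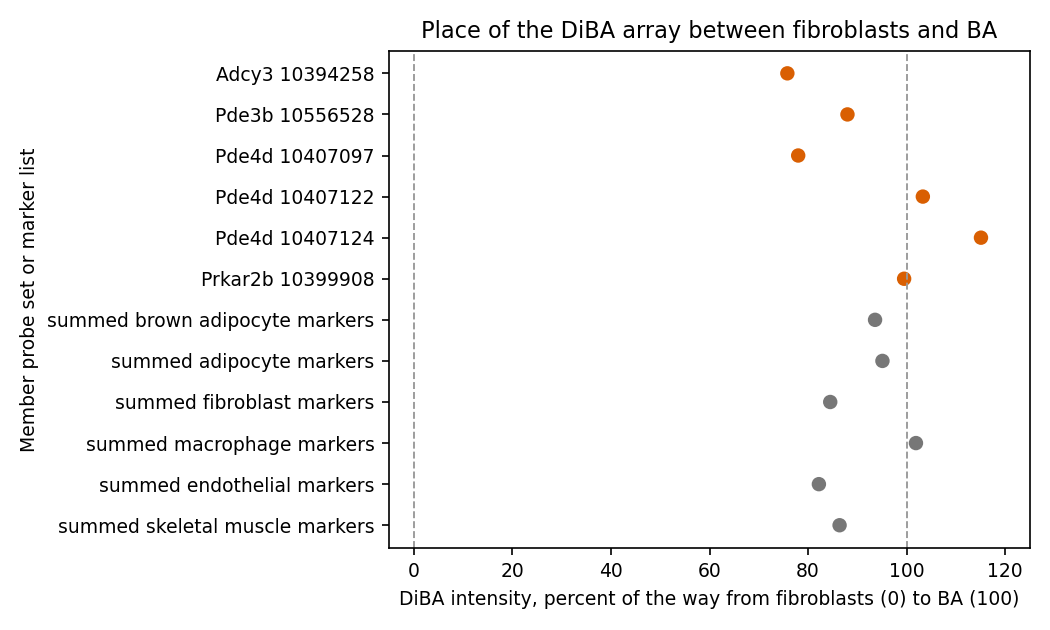
Place of the DiBA intensity between the fibroblast array (0%) and the BA array (100%), on the linear scale, for each member probe set (orange) and for the summed intensity of 6 marker lists (grey). Adcy3 is the lowest at 75.8%, Prkar2b is at 99.5%, and the Pde4d probe sets spread from 78.0% to 115.1%.

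Because Adcy3 and Prkar2b were higher together in both brown samples, the bases before their starts were examined for letters bound by factors of this pathway and of adipocytes. RefSeq promoter windows on GRCm38.p6 were found for 3 of the 4 genes, Adcy3, Pde4d and Prkar2b, and the 250 bases before the more upstream start of each called gene are shown. Capitals mark GGGCGG, the GC box bound by Sp1, and CCCNNGGG, the core recognised by EBF factors, on either strand.
Prkar2b, chr12:32061278-32061527, minus strand: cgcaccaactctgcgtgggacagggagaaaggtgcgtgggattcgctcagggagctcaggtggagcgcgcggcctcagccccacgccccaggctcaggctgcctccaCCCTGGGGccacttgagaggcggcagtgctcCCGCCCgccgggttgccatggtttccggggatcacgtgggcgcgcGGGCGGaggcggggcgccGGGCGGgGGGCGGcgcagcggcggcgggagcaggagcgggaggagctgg
Adcy3, chr12:4133147-4133396, plus strand: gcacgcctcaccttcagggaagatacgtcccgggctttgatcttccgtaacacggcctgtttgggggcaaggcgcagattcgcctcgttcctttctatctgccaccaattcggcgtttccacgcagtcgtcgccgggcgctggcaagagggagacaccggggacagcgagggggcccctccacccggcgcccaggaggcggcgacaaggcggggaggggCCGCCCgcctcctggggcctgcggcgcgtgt

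The Prkar2b window held GGGCGG at 4 places and CCCNNGGG at 1, between 143 and 136 bases before the start, with no overlap between them. The Adcy3 window held GGGCGG at 1 place, between 31 and 26 bases before the start. Over all 32851 promoter windows of the same length, 32.7% held GGGCGG and 11.8% CCCNNGGG. The cAMP response element TGACGTCA (1.55% of windows), the core of 5 letters TGACG that it contains (17.8%), the element bound by PPARγ, in which copies of AGGTCA follow each other with 1 base between them (0.0335%), and the C/EBP letters TTGCNNAA (9.56%) were searched on both strands and occurred in neither window. The windows shown were rich in G and C, at 75.6% for Prkar2b and 68.8% for Adcy3, against a median of 52.4% over all windows and 38.8% in the single Pde4d window. Both genes also had a window at a more downstream start, not shown, in which none of the searched letters occurred. Those windows held 69.6% G and C for Prkar2b and 56.0% for Adcy3.

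The other genes of the pathway were taken from lists by role, and each count stands beside the share of all genes given above. Where a gene passed 2-fold in one brown sample and not in the other, the gap between those samples has no test. At the receptors, the adrenergic receptor genes Adra1b and Adra2c were measured. Adra1b, which encodes an α1 receptor coupled to Gq, read 47.1 in DiBA and in BA, against 64.6 in fibroblasts, and Adra2c, which encodes an α2 receptor coupled to Gi, read 28.4 on all 3 arrays. Both lay under 69.2 on every array, so neither gene's level was measurable above the mark.

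Of 11 other genes for Gs-coupled receptors, 5 passed the intensity mark in each comparison with fibroblasts. In DiBA 3 were called higher and 0 lower, and the same 3 were called in BA. The median difference of the list in DiBA was 0, the same as over all genes, both falling on exactly equal values. Sctr, the secretin receptor gene, read 243 in DiBA and 308 in BA, against 30.7 in fibroblasts. Tshr, the thyrotropin receptor gene, read 221 in DiBA and 235 in BA, against 28.4 in fibroblasts, and Mc2r, the corticotropin receptor gene, read 132 in DiBA and 160 in BA, against 32.4 in fibroblasts. All 3 fibroblast values were under 69.2. With low values raised to it, log2 differences in DiBA and BA were 1.80 and 2.14 for Sctr, 1.66 and 1.75 for Tshr, and 0.93 and 1.20 for Mc2r, which in DiBA no longer reached 2-fold.

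Of 7 other genes for Gi-coupled receptors, which lower cAMP, 3 passed the intensity mark. All 3 were called higher in each brown sample than in fibroblasts. They passed only through their brown values, and the other genes lay under 69.2 on every array, so no gene of this list could have been called lower. The median differences, 1.21 in DiBA and 1.19 in BA, were those of a single gene, Sucnr1, which lay under 69.2 on every array, and with low values raised to 69.2 the list's median was 0 in both, as over all genes. Hcar1, the lactate receptor gene, read 370.0 in DiBA and 490 in BA, against 42.5 in fibroblasts. Ptger3, which encodes the prostaglandin E receptor EP3, read 258 in DiBA and 352 in BA, against 29.5 in fibroblasts, and Hcar2, the hydroxybutyrate and niacin receptor gene, read 173 in DiBA and 206 in BA, against 27.4 in fibroblasts. Raised to 69.2, the fibroblast values still left all 3 past 2-fold in both. The called receptor genes therefore included both those that raise cAMP and those that lower it, 3 of each, all with fibroblast values under 69.2.

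Of 10 G protein genes, 1 was called higher and 1 lower in DiBA than in fibroblasts, and 1 higher and 2 lower in BA. Their median differences were -0.45 in DiBA and -0.46 in BA. The called genes all encode inhibitory α subunits and did not move together. Gnai1 read 741 in DiBA and 830 in BA, against 254 in fibroblasts, whereas Gnai2 read 1521 in DiBA and 1456 in BA, against 3369 in fibroblasts. Gnai3 read 405 in DiBA and 365 in BA, against 786 in fibroblasts, past 2-fold in BA and not in DiBA, with log2 differences of -0.96 in DiBA and -1.10 in BA.

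Among the 10 adenylyl cyclase genes, Adcy3 and Adcy9 were called higher in both brown samples than in fibroblasts and Adcy2 lower, with median differences of 0.25 in DiBA and 0.18 in BA. Adcy9, a widely expressed cyclase, read 401 in DiBA and 469 in BA, against 83.6 in fibroblasts, log2 differences of 2.25 and 2.47, larger than those of Adcy3 at 1.38 and 1.64. Adcy2 read 65.8 in DiBA and 47.9 in BA, against 144 in fibroblasts, both brown values being under 69.2. Adcy6 read 660 in DiBA and 734 in BA, against 411 in fibroblasts, which did not reach 2-fold.

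Of 16 genes for cAMP phosphodiesterases, 4 were called higher and 1 lower in DiBA than in fibroblasts, and 6 higher and 1 lower in BA. The median differences were 0.45 in DiBA and 0.56 in BA, against 0 over all genes. Beside Pde3b, Pde8a, a cAMP-specific enzyme of high affinity, read 681 in DiBA and 810 in BA, against 211 in fibroblasts. Pde2a, which cGMP stimulates, read 309 in DiBA and 370 in BA, against 87.2 in fibroblasts, and Pde1a, which calcium and calmodulin stimulate, read 217 in DiBA and 256 in BA, against 52.9 in fibroblasts. Pde1b and Pde4a, named after their values were seen, passed 2-fold in BA and not in DiBA, with log2 differences of 0.69 and 0.89 in DiBA and 1.03 and 1.02 in BA. Pde8b read 37.7 in DiBA and in BA, against 96.1 in fibroblasts, and was no longer called with the low values raised to 69.2.

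Within this family, relatives of the members were compared with them. Pde3a, the other phosphodiesterase 3 gene, which is prominent in heart and platelets, read 129 in DiBA and 145 in BA, against 172 in fibroblasts, log2 differences of -0.41 and -0.24 where Pde3b had 3.63 and 3.80. Of the other phosphodiesterase 4 genes, Pde4b read 62.4 in DiBA and in BA, against 99.8 in fibroblasts, Pde4c stayed under 69.2 on all arrays, and Pde4a had the differences of 0.89 and 1.02 given above, on the same side as the 0.72 and 0.74 of Pde4d. Pde3a, Pde4b and Pde4c were chosen for mention with their values known.

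Among 8 genes for protein kinase A subunits and inhibitors, Prkar2b was the 1 called higher in DiBA and in BA than in fibroblasts, and Prkar2a was the 1 called lower. Prkar2a encodes RIIα, the other type II regulatory subunit, and read 266 in DiBA and 231 in BA, against 580 in fibroblasts, log2 differences of -1.12 and -1.32. The type I subunit genes, given after their values were seen, did not reach 2-fold. Prkar1a read 1074 in DiBA and 1068 in BA, against 1528 in fibroblasts, and Prkar1b read 76.4 in DiBA and 81.8 in BA, against 138 in fibroblasts. The catalytic subunit gene Prkacb read exactly 876 on all 3 arrays. The type II regulatory genes therefore differed in opposite directions, while the list's median was -0.29 in DiBA and -0.20 in BA.

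**Figure D3:**
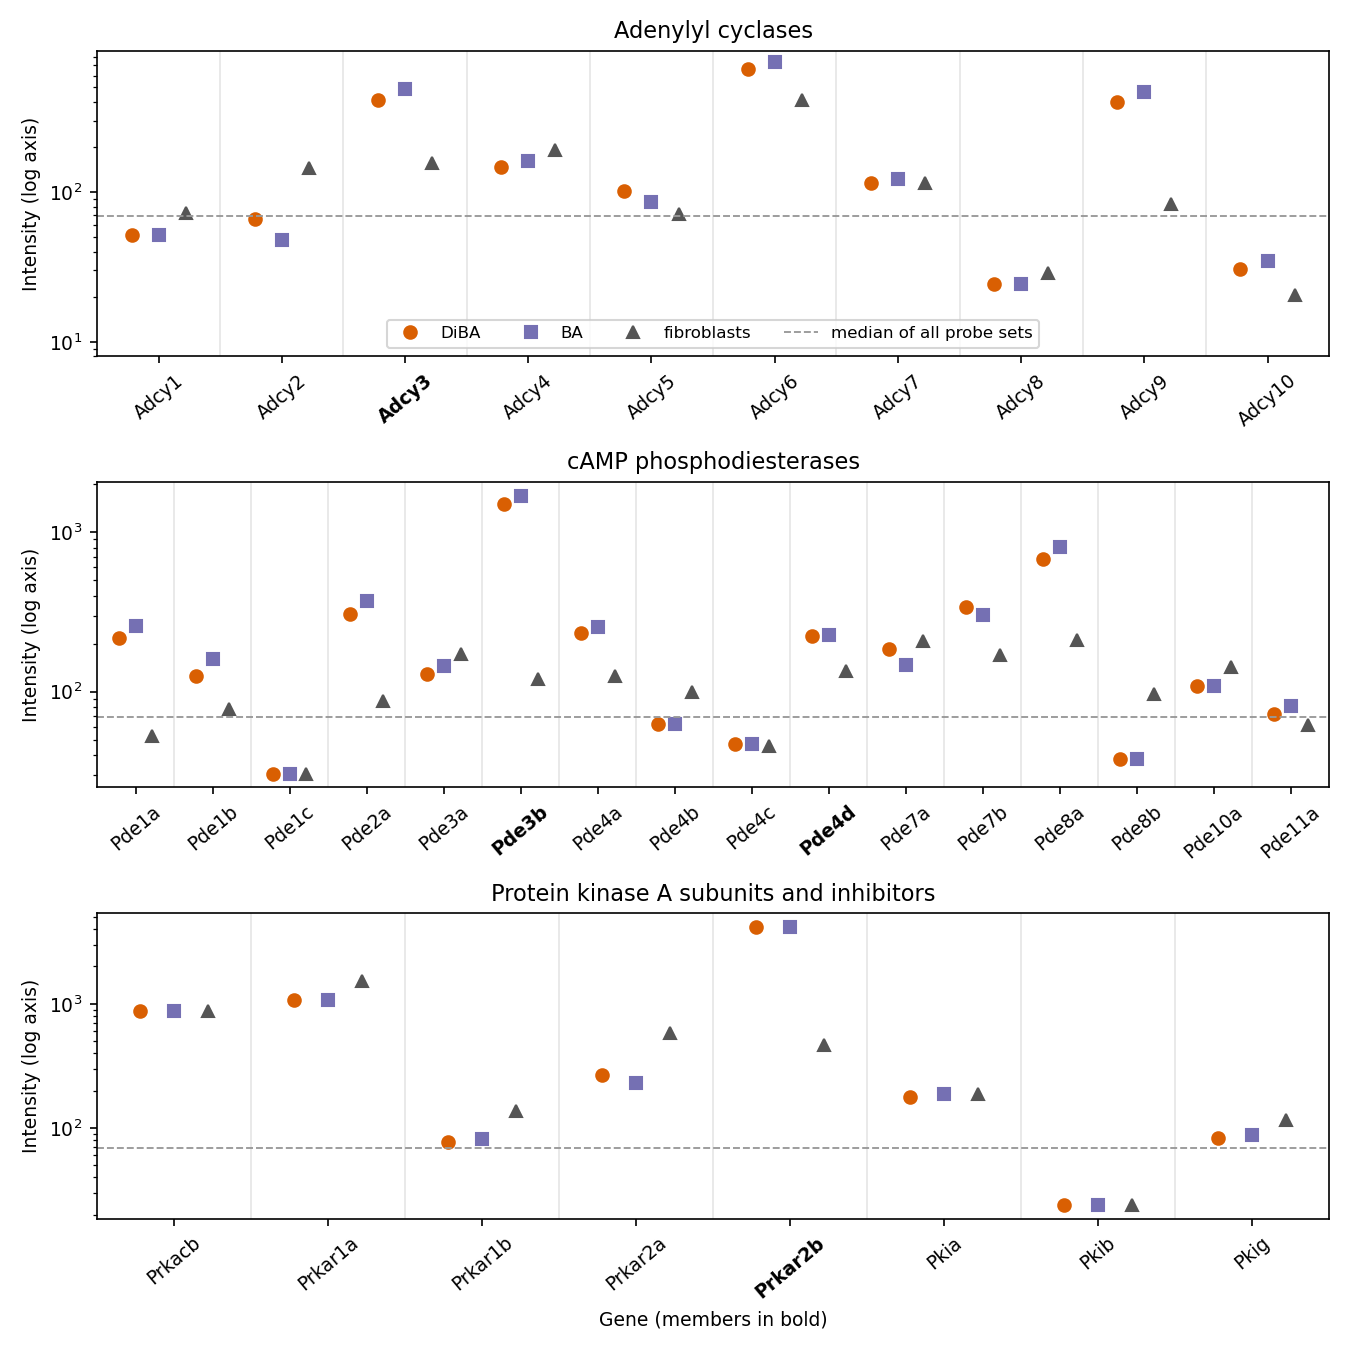
Intensity (log axis) of every measured adenylyl cyclase, cAMP phosphodiesterase and protein kinase A gene on the DiBA, BA and fibroblast arrays, 1 point per array, with members in bold and the median of all probe sets dashed; levels are to be compared within a gene only. Pde3b and Prkar2b show the widest gaps of their panels between the brown samples and fibroblasts, and Prkar2a lies on the opposite side, higher in fibroblasts.

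Anchoring proteins place the kinase in the cell. Of 12 A-kinase anchoring protein genes, 2 were called higher and 1 lower in each brown sample than in fibroblasts, with a median difference of 0 in both. Akap1, which tethers the kinase to the outer mitochondrial membrane, read 959 in DiBA and 1139 in BA, against 215 in fibroblasts. Akap7 read 517 in DiBA and 565 in BA, against 120.1 in fibroblasts. Akap12, a scaffold at the plasma membrane that binds β-adrenergic receptors, read 131 in DiBA and 143 in BA, against 972 in fibroblasts, log2 differences of -2.88 and -2.76. Rapgef3, which encodes the cAMP-activated exchange factor Epac1, read 72.7 on all 3 arrays.

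Of 9 genes for kinases, arrestins and regulators that dampen receptor signalling, 2 were called higher and 1 lower in DiBA than in fibroblasts, and 3 higher and 1 lower in BA, with a median of 0.04 in both. Rgs2, a regulator that turns off Gq, read 1590 in DiBA and 1657 in BA, against 75.5 in fibroblasts, log2 differences of 4.38 and 4.44. Grk3, a receptor kinase, read 279.5 in DiBA and 359 in BA, against 40.3 in fibroblasts. Arrb1, the β-arrestin 1 gene, passed 2-fold in BA and not in DiBA, at 260.0 in DiBA and 320 in BA, against 138 in fibroblasts. Rgs4 read 60.4 in DiBA and 66.5 in BA, against 242 in fibroblasts.

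Downstream, 0 of 9 genes of the CREB family and its coactivators were called in either brown sample, with a median of -0.08 in both. Of 11 genes known to be induced by cAMP in brown fat or other tissues, 4 were called higher and 2 lower in DiBA than in fibroblasts, and 4 higher and 3 lower in BA. Their median differences were 0 in DiBA and 0.18 in BA. The higher ones were Ucp1, Ppargc1a, Elovl3 and Dio2, genes that brown fat uses for thermogenesis, and 3 of them, Ucp1, Elovl3 and Dio2, are among the brown adipocyte markers counted above. Ppargc1a, a coactivator of mitochondrial genes, read 531 in DiBA and 595 in BA, against 47.1 in fibroblasts. With low values raised to 69.2, Elovl3 and Dio2 were no longer called; Dio2 is named outside the rule for named genes. The lower ones were genes that respond within the first hours of stimulation in many cell types. Sik1 read 127 in DiBA and 129 in BA, against 320 in fibroblasts, and Dusp1 read 588 in DiBA and 743 in BA, against 1555 in fibroblasts. Nr4a1 read 190 in DiBA and 108 in BA, against 273 in fibroblasts, and was called in BA and not in DiBA.

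All 4 genes for lipolysis proteins governed by protein kinase A were called higher in both brown samples than in fibroblasts, with medians of 5.00 in DiBA and 5.15 in BA. Plin1, the perilipin that guards the lipid droplet, had log2 differences of 6.24 in DiBA and 6.27 in BA. Those of Lipe, hormone-sensitive lipase, were 5.25 and 5.44, those of Pnpla2, adipose triglyceride lipase, 4.75 and 4.86, and those of Abhd5, its activator, 1.21 and 1.27. These adipocyte genes are partly the markers of the samples themselves. Of 6 genes for noradrenaline synthesis and removal, 2 passed the intensity mark. The 1 called was Maob, a monoamine oxidase of the outer mitochondrial membrane, at 1338 in DiBA and 1546 in BA, against 72.4 in fibroblasts. Th and Dbh, the enzymes that sympathetic nerves need to make noradrenaline, lay under 69.2 on all 3 arrays, at 46.4 for Th on each and at 23.7 in DiBA, 25.1 in BA and 25.1 in fibroblasts for Dbh.

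**Figure D4:**
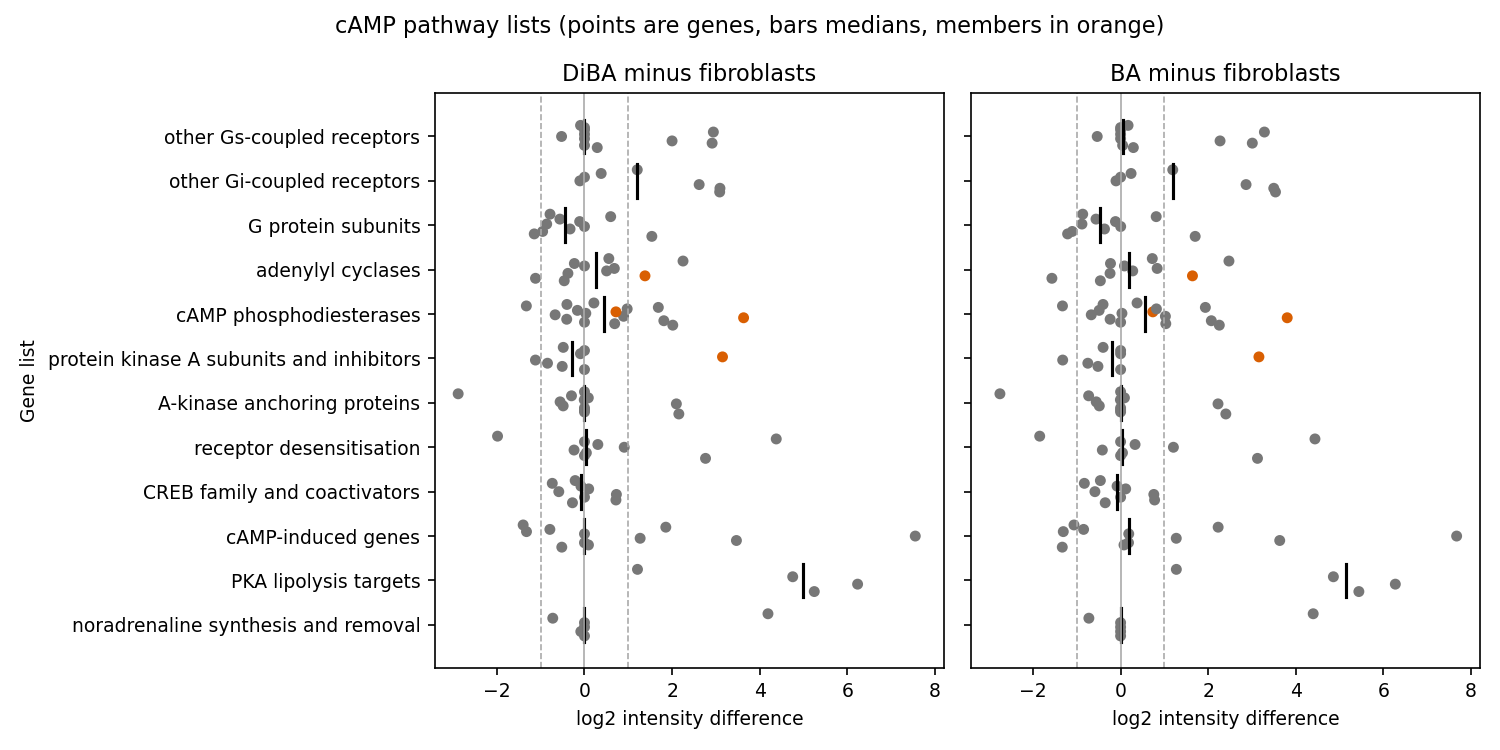
Differences in log2 intensity of the measured genes of 12 lists of the cAMP pathway, DiBA minus fibroblasts on the left and BA minus fibroblasts on the right; both panels share the fibroblast array. Points are genes, black bars list medians, orange points the members Adcy3, Pde3b, Pde4d and Prkar2b, and dashed lines mark 2-fold in either direction. Medians lie within the dashed lines in 10 of 12 lists, and beyond them for the lipolysis genes, all 4 of which lie to the right, and for the Gi-coupled receptors, whose median is 0 with low values raised to 69.2.

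Set directly against BA, DiBA showed 0 called genes in any of the pathway lists, where 0.973% of all genes were called. Beside so small a share, and with 47.3% of probe sets exactly equal in DiBA and BA, this count says little about the pathway. Differences of DiBA minus BA ran from -0.34 to 0.33 over the 16 phosphodiesterase genes, from -0.26 to 0.45 over the 10 cyclase genes and from -0.10 to 0.20 over the 8 kinase genes. The widest difference of these lists was Nr4a1 at 0.81. All 4 members were lower in DiBA than in BA, by 0.26 for Adcy3, 0.17 for Pde3b, 0.02 for Pde4d and 0.01 for Prkar2b on the log2 scale, though the Pde4d probe set 10407124 was 0.15 higher, with no replicate spread to set these gaps against. Of all genes, 4.7%, 10.5%, 28.4% and 29.9% had lower differences than these members, in the same order. This direction was common among genes called higher in BA than in fibroblasts, whose upper quartile was 90.1% of the way to BA.

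The rule fixed for naming genes of like pattern was written for Adrb3 and could not be applied, so it was turned, after the values were seen, to the members with the widest differences. Likeness was the distance between pairs of log2 differences from fibroblasts, in DiBA and in BA, over 3 arrays and 11108 genes that passed the mark. Nearest to Pde3b were Ralgapa2, Rarres2, Tnnt3, Rarres1 and Myh1, at distances from 0.02 to 0.07. Tnnt3 and Myh1 encode fast skeletal muscle proteins. Nearest to Prkar2b were Gbp4, Ppp2r5a, Sucla2, Auh and Pla2g2d, at distances from 0.0042 to 0.07, of which Sucla2 and Auh encode mitochondrial enzymes. With 3 arrays, such closeness is a description of these values.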

How the data were processed

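Total RNA of 3 mouse samples was hybridised to 1 single-colour Affymetrix array each, after biotin labelling with a whole-transcript kit, per the labels' protocols. The authors deposited 1 linear intensity per probe set, and the submitters' processing notes name Affymetrix Expression Console. How that program summarized and normalized the probes is not given in the sources used here. Close quartiles of the arrays led to the values being taken as already normalized. Groups came from the sample titles.

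Of 28943 probe sets, the platform table lists 23410, of which 21789 have 1 gene symbol and 1621 several, which named no gene; 5533 stay unnamed. The gene identifier of 21698 was found in RefSeq (GRCm38.p6), and 0 symbols changed. Log2(intensity + 1) was averaged over the probe sets of a gene, giving 19938 genes. Calls needed 2-fold and an intensity of 69.2, the median over all arrays, in the brighter array. The share of genes called is over all 19938, and that mark was passed by 11621 genes with DiBA and fibroblasts, 11663 with BA and fibroblasts and 11076 with DiBA and BA. The code for the calls was checked on simulated arrays with known changes and an assumed noise level. The deposited arrays give no measure of noise, so that check does not show how reliable the calls are. With 1 array per group no test was run, and the number of arrays limits the precision.

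The members and lists were chosen with earlier results of these data known. Genes named are the members, up to 5 called genes per list and comparison by size of difference, and others where said. Further genes that were not called, among them Adcy6, Prkacb, Rapgef3, Cspg4, Th, Dbh, Adra1b, Adra2c and Sucnr1, were also named outside this rule. The closest patterns were to be sought for Adrb3. Promoter letters are RefSeq's on GRCm38.p6, with the bases after the start left out. Alternatives were other scalings, filters, a floor, a pseudocount of 16, the brightest probe set and a 1.5-fold threshold. Work used Python 3.11.15, NumPy 2.4.6, pandas 2.3.3 and matplotlib 3.10.9.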

Additional observations from a re-analysis of the deposited data

How the results depend on the processing

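The counts of members called stayed at 3, 3 and 0, for DiBA against fibroblasts, BA against fibroblasts and DiBA against BA, under median centring, quantile normalization, no filter, a 75th percentile filter, the floor at 69.2 and a pseudocount of 16. With the brightest probe set per gene, BA against fibroblasts had 4, and a 1.5-fold threshold gave 4 in each comparison with fibroblasts and 0 between DiBA and BA; the added gene was Pde4d. Over the 5 alternatives that change values, DiBA minus fibroblasts ranged from 3.48 to 3.63 for Pde3b, from 3.08 to 3.20 for Prkar2b, from 1.30 to 1.38 for Adcy3 and from 0.64 to 0.87 for Pde4d, and BA minus fibroblasts from 3.65 to 3.81, 3.12 to 3.20, 1.55 to 1.64 and 0.66 to 1.04 for the same genes. DiBA minus BA stayed below 0 for all 4, between -0.34 and -0.0023. Over all genes, DiBA against BA called 194 genes, 76 with the 75th percentile filter and 467 at 1.5-fold, and the comparisons with fibroblasts called 3233 for DiBA and 3810 for BA, or 5233 and 5724 at 1.5-fold. No paired analysis was possible because each group holds 1 array, and for the same reason no array could be left out.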
